A study of Homo sapiens with 21 samples.

Results

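Class I antigen presentation was followed through 9 genes chosen by their role, out of 65065 genes in the count table. They are the heavy chain genes HLA-B, HLA-C, HLA-E and HLA-F, the light chain gene B2M, the peptide transporter genes TAP1 and TAP2, the loading factor gene TAPBP and the transcriptional activator gene NLRC5. Each was matched by its Ensembl identifier on the primary chromosome copy, and all 9 passed the filter on low counts. The study gave HCT-116 cells, an epithelial-like human colorectal carcinoma line, extracellular vesicles (EVs, membrane particles shed by cells) from human serum. HCC+ EVs came from the serum of HCC patients and HCC- EVs from the serum of healthy people, both isolated by the GlyExo-Capture method. Each source was given at 1.2, 0.24 or 0.048 mg/mL, a blank control had 0 mg/mL, and each of the 7 groups had 3 libraries of polyadenylated RNA, 21 in all. All groups shared the line and a medium with exosome-depleted serum. The number of serum donors, the length of exposure and the origin of the replicates were not given in the sources used here, so p-values measure the spread between these libraries, which may be technical.

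A class I molecule is a heavy chain paired with beta-2-microglobulin, the product of B2M, and it shows a short peptide at the cell surface to CD8+ T cells and natural killer cells. The proteasome cuts the peptides, the TAP1-TAP2 heterodimer pumps them into the endoplasmic reticulum, and tapasin, the product of TAPBP, holds the empty heavy chain at the transporter until a peptide fits. NLRC5 is a transactivator that works with RFX and other factors on the promoters of heavy chain genes, B2M, TAP1 and the immunoproteasome genes, and interferons raise most of these genes. Colorectal tumours often lose parts of this pathway.

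The pathway did not move as 1 block. At 1.2 mg/mL TAPBP, TAP1 and HLA-E rose with either EV source, while TAP2 and B2M fell, both further with HCC- EVs. Their smaller falls with HCC+ EVs lost the call under several alternatives. NLRC5 rose with HCC+ EVs. HLA-F passed the test in none of the 12 comparisons, and HLA-B passed it against the blank at the lowest HCC- dose alone.

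The reference sequences upstream of the start sites show what regulatory letters these genes share, and they are given for the genes that moved most and for the neighbouring pair HLA-B and HLA-C. RefSeq (GRCh38.p14) gave a promoter for 7 of the 9 genes, and HLA-E and NLRC5 were not among them. TAP1 had 2 starts, and the more upstream start was used. Each sequence is the 250 bases before the RefSeq start, read 5′ to 3′ on the gene's strand, and the alleles of HCT-116 may differ from it. Capitals mark matches, on either strand, to AANNGAAA (core letters of interferon regulatory factor sites), CCAAT (the NF-Y box), TGACG (part of the cyclic AMP response element) and to GGG, NN, TT, N and CC in a row (letters of NF-kappaB sites), spelled with the sequences in view. The windows are TAP1 at chr6:32853705-32853954 on the minus strand, TAPBP at chr6:33314079-33314328 on the minus strand, TAP2 at chr6:32838740-32838989 on the minus strand, B2M at chr15:44711267-44711516 on the plus strand, HLA-B at chr6:31357180-31357429 and HLA-C at chr6:31272093-31272342, both on the minus strand.
TAP1: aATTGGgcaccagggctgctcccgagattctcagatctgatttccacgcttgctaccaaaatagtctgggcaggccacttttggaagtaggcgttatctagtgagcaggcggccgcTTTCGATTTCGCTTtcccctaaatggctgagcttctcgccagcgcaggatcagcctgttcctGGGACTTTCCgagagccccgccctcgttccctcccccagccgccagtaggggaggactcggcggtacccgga
TAPBP: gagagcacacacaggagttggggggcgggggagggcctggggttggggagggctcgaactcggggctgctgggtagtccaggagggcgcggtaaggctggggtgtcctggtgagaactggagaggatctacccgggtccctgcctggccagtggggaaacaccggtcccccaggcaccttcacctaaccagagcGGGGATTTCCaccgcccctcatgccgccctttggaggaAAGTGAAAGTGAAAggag
TAP2: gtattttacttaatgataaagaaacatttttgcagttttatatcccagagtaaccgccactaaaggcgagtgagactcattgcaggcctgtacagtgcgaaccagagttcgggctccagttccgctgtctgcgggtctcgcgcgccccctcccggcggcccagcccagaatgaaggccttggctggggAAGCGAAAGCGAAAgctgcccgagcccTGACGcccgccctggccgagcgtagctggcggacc
B2M: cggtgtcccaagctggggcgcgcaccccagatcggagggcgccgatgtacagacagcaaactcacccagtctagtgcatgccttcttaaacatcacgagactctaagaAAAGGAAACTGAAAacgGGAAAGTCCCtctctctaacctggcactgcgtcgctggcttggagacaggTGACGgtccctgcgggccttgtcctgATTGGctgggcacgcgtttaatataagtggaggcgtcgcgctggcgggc
HLA-B: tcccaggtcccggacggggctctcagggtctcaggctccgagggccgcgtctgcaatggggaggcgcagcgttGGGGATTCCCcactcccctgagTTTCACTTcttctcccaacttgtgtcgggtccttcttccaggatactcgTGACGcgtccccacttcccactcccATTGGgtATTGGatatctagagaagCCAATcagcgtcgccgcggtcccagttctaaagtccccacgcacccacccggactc
HLA-C: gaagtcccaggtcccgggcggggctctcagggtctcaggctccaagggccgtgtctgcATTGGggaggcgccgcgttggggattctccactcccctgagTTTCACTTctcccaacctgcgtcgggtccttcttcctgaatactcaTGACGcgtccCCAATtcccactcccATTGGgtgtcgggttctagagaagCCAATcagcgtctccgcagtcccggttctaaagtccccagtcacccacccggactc

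AANNGAAA lay in all 7 windows, against 20.3% of 35116 promoters of the same length. The heavy chain genes are related, and HLA-B and HLA-C hold the same match (TTTCACTT), so the 7 windows are not independent. It was found 2 times each in TAP1, TAPBP, TAP2 and B2M, as overlapping copies, and 1 time in HLA-B, HLA-C and HLA-F. Its place differed: the matches spanned bases 134 to 121 before the start in TAP1, 142 to 129 in B2M, 62 to 49 in TAP2 and 18 to 5 in TAPBP. The NF-kappaB letters were present in 4 of 7 windows (TAP1, TAPBP, B2M and HLA-B), against 5.1% of promoters. CCAAT was present in 5 of 7, all but TAP2 and TAPBP, against 32.0%, and TGACG in 4 of 7 (TAP2, B2M, HLA-B and HLA-C), against 21.2%. A match describes the letters of the window and is not a measured binding site.

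The libraries held 31219343 to 64012757 counts. Levels are given in CPM, each gene's share of its library's counts after scaling by trimmed mean of M-values (TMM) factors, and differences as log2 fold changes with their standard error (SE) from edgeR's quasi-likelihood F test, adjusted by Benjamini-Hochberg over 19556 genes. A gene was called at an adjusted p under 0.05. The first principal component, 34.6% of the variance, set the 6 libraries at 1.2 mg/mL apart from the others, and blank replicate 1 lay away from the other blanks on the second. Among colon epithelial markers EPCAM (213 to 314 CPM), KRT8 (1770 to 2800 CPM) and CDH1 (66.8 to 82.8 CPM) were present in every library, while VIL1, CEACAM5 and LGR5 stayed under 0.5 CPM. In these bulk samples fewer cells of a type and less RNA per cell cannot be told apart, nor can RNA made by the cells and RNA carried in by EVs.

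Per kilobase of exon, HLA-C was the most abundant of the 9 genes in the blank, at 81.8 ± 11.3 CPM per kilobase (SD, n = 3). B2M followed at 42.2 ± 2.76, although its long merged exon model of 6079 bases lowers a value per length. HLA-E (29.3 ± 1.57) and HLA-B (28.6 ± 2.12) were about level, and TAPBP (13.7 ± 0.732), TAP1 (8.27 ± 0.817) and TAP2 (4.42 ± 0.425) came next. HLA-F (0.854 ± 0.126) and NLRC5 (0.68 ± 0.0247) were the lowest. The heavy chain genes share long stretches of near-identical sequence, and how reads that fit several places were handled was not given in the sources used here, so counts may be split between them.

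**Figure D1:**
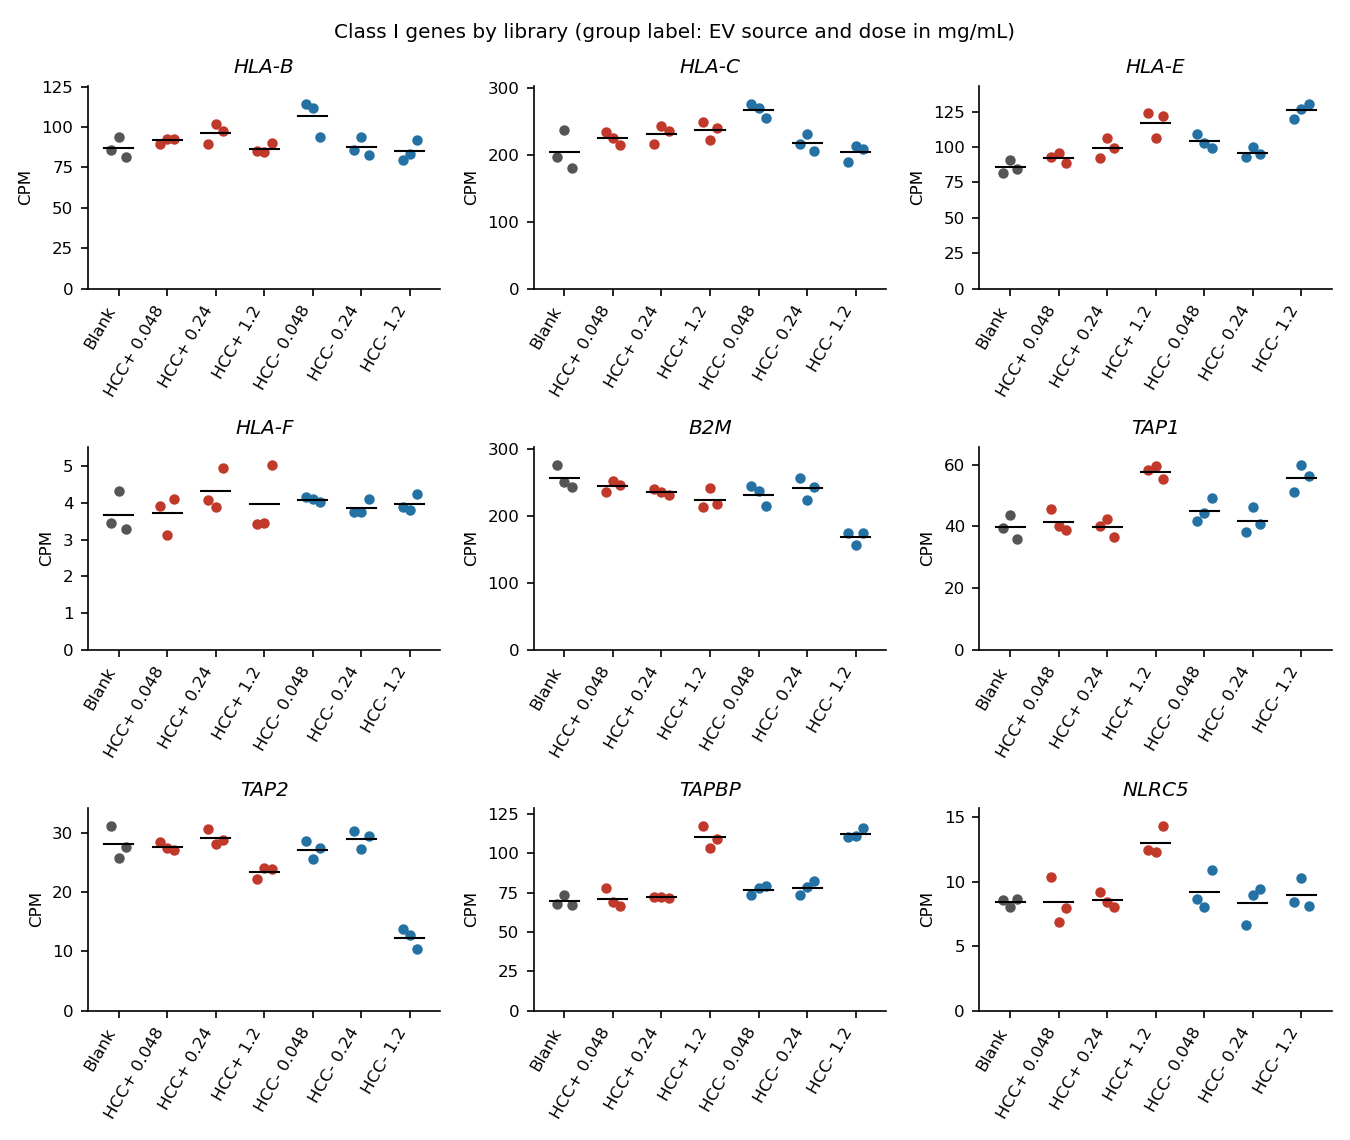
Level of each of the 9 genes in TMM-scaled CPM (vertical axis, from 0) in the 3 libraries (points) of each of the 7 groups (horizontal axis, EV source and dose in mg/mL), with the group mean as a line; grey is blank, red HCC+ and blue HCC-. TAP1 and TAPBP stand above all other groups in both 1.2 mg/mL groups, TAP2 and B2M are lowest in the HCC- 1.2 mg/mL group, and NLRC5 is highest in the HCC+ 1.2 mg/mL group.

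Against the blank, 7 of the 9 genes were called with HCC+ EVs at 1.2 mg/mL, 5 higher and 2 lower, where 33% of all tested genes were called (15.6% higher, 17.4% lower). With HCC- EVs at 1.2 mg/mL 5 of 9 were called, 3 higher and 2 lower, where 53.3% of all genes were called (24.8% higher, 28.5% lower), a share close to the background. The median log2 fold change of the 9 genes was 0.21 with HCC+ and 0.09 with HCC- EVs, beside 0.013 and 0.051 over all tested genes. Both comparisons use the same blank libraries. Without blank replicate 1 the HCC+ count was 4, all higher, and it was also 4 without HCC+ replicate 1 or when only the 2 groups compared were fitted; the HCC- count was 5 in every fit that left out a library. Under total-count scaling all 9 genes were called with HCC- EVs, 7 higher and 2 lower, and over all genes 8128 were higher and 3097 lower, against 4844 and 5574 with TMM. With GC and length trends removed the HCC- split over all genes was 6320 higher and 4720 lower. For HCC+ EVs that scaling gave 4657 higher and 2069 lower over all genes, against 3046 and 3398.

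**Figure D2:**
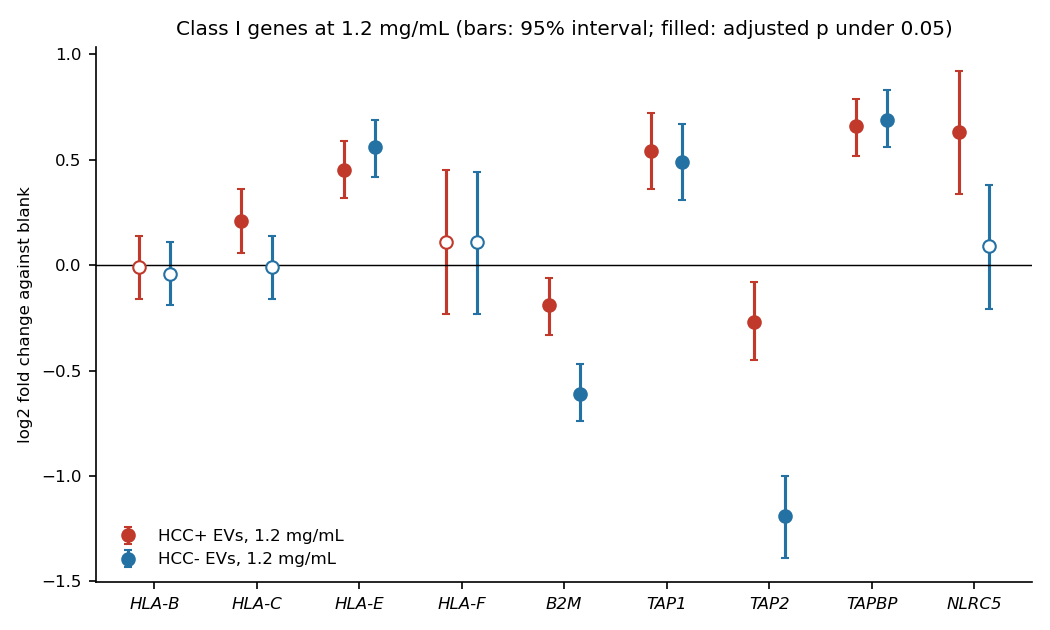
Log2 fold change against the blank at 1.2 mg/mL (vertical axis) for the 9 genes (horizontal axis), with 95% intervals as bars; red is HCC+, blue HCC-, and filled points passed an adjusted p under 0.05. TAPBP, TAP1 and HLA-E sit above 0 for both sources, TAP2 and B2M below 0 with the HCC- points lower, and HLA-C and NLRC5 are filled for HCC+ alone.

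TAP1 and TAP2 encode the partners of a single transporter, and their transcripts went opposite ways. TAP1 (ENSG00000168394, chromosome 6, 32845209 to 32853978) was at 39.6, 43.7 and 35.9 CPM in the blank libraries. It was at 58.2, 59.6 and 55.3 CPM with HCC+ EVs at 1.2 mg/mL and at 51.3, 59.8 and 56.5 CPM with HCC- EVs. Every treated library at this dose was above every blank library, and the sources overlapped each other. The rise was 0.54 ± 0.09 (SE, adjusted p = 1.37e-05) with HCC+ and 0.49 ± 0.09 (adjusted p = 1.64e-05) with HCC-. At the lower doses TAP1 was at 41.5 ± 3.63 and 39.7 ± 2.94 CPM with HCC+ EVs (0.048 and 0.24 mg/mL, SD, n = 3), and at 45.1 ± 3.81 and 41.8 ± 4.06 CPM with HCC-. These 4 groups and the blank overlapped.

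TAP2 (ENSG00000204267, chromosome 6, 32821833 to 32838770) was at 31.1, 25.7 and 27.7 CPM in the blank. With HCC+ EVs at 1.2 mg/mL it was at 22.2, 24.0 and 23.9 CPM, and with HCC- EVs at 13.8, 12.7 and 10.4 CPM. The 3 groups did not overlap, and the HCC- libraries were the lowest of the 21. TAP2 fell by 1.19 ± 0.09 on the log2 scale with HCC- EVs (adjusted p = 2.92e-12), to 0.437 of the blank. With HCC+ EVs it fell by 0.27 ± 0.09 (adjusted p = 0.023), a call that ended under total-count scaling (-0.15, adjusted p = 0.226), with only the groups compared, and without HCC+ replicate 1 or blank replicate 1. The other 4 groups lay between 27.2 ± 1.54 and 29.2 ± 1.38 CPM and overlapped the blank. Of the exon bases of TAP2, 32.2% also belong to an overlapping gene model on the same strand that holds 1 count in all 21 libraries, so reads from those bases may be missing from TAP2.

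The ratio of TAP1 to TAP2 per kilobase gives the same contrast inside each library, free of library scaling. It was 1.69, 2.25 and 1.72 in the blank, 3.49, 3.29 and 3.07 with HCC+ EVs at 1.2 mg/mL and 4.92, 6.23 and 7.25 with HCC- EVs. The 3 groups did not overlap. The mean ratio was 1.75 times the blank with HCC+ and 3.24 times with HCC-, each at p = 0.1 in a 2-sided exact permutation test, the smallest p that 3 against 3 libraries allow. At 0.048 and 0.24 mg/mL the group means ran from 1.81 to 2.2, beside 1.89 in the blank.

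**Figure D3:**
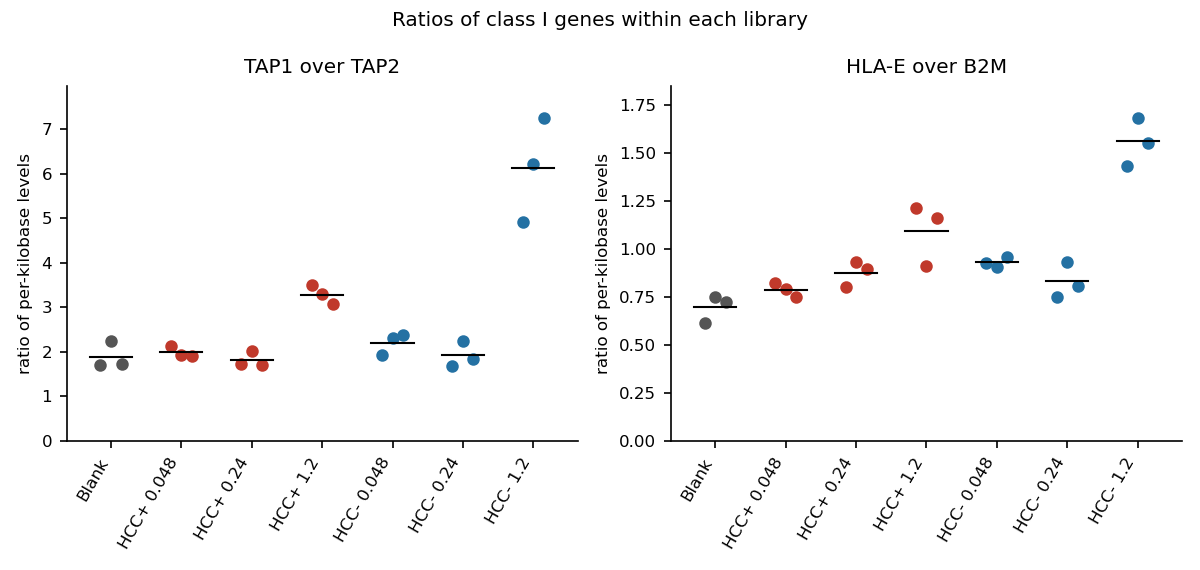
Ratio of per-kilobase levels within each library (vertical axes, from 0) of TAP1 to TAP2 (left) and of HLA-E to B2M (right) in the 7 groups (horizontal axis, EV source and dose in mg/mL); points are libraries and lines are means. For TAP1 to TAP2 all 6 libraries at 1.2 mg/mL lie above the blank libraries, and the HCC- libraries, from 4.92 to 7.25, are highest.

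TAPBP (ENSG00000231925, chromosome 6, 33299694 to 33314387), whose product tapasin bridges the heavy chain to the transporter, had the highest estimated fold change of the 9 genes with either source, close to that of NLRC5 with HCC+. It was at 67.6, 73.7 and 67.0 CPM in the blank, at 117, 103 and 109 CPM with HCC+ EVs at 1.2 mg/mL and at 110, 111 and 116 CPM with HCC- EVs. All 6 treated libraries lay above all libraries of the other 5 groups, whose means ran from 69.4 ± 3.7 to 78.1 ± 4.51 CPM. TAPBP rose by 0.66 ± 0.07 with HCC+ (adjusted p = 6e-09) and 0.69 ± 0.07 with HCC- (adjusted p = 2.29e-10), and it remained called in each alternative and each fit without a library.

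Among the heavy chain genes chosen here, HLA-E was the one that rose with both sources. Its product shows leader peptides of other class I chains to the NKG2A receptor of natural killer cells. HLA-E (ENSG00000204592, chromosome 6, 30489509 to 30494194) was at 81.4, 90.5 and 84.7 CPM in the blank. It was at 124, 106 and 122 CPM with HCC+ EVs at 1.2 mg/mL and at 120, 127 and 130 CPM with HCC- EVs. No treated library overlapped the blank, and the rise was 0.45 ± 0.07 (adjusted p = 3.91e-06) and 0.56 ± 0.07 (adjusted p = 2.61e-08). The lower doses gave 92.5 ± 3.37 and 99.1 ± 6.68 CPM with HCC+ (0.048 and 0.24 mg/mL, SD, n = 3) and 104 ± 5.06 and 95.9 ± 3.97 CPM with HCC-. HLA-E was thus lowest in the blank of all 7 groups, and each neighbour in that order overlapped the next.

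HLA-B and HLA-C present most cytosolic peptides to T cells. HLA-C (ENSG00000204525, chromosome 6, 31268749 to 31272130) was at 197, 237 and 181 CPM in the blank, at 250, 223 and 240 CPM with HCC+ EVs at 1.2 mg/mL and at 190, 214 and 209 CPM with HCC-. The blank libraries were the most spread and overlapped both treated groups. The HCC+ rise was 0.21 ± 0.07 (adjusted p = 0.026), and its call ended when HCC+ replicate 1 or 3 or blank replicate 1 or 3 was left out (0.13 to 0.33 over the 6 fits) or when only the groups compared were fitted. With HCC- EVs the value was -0.01 ± 0.07 (adjusted p = 0.948), and 0.28 under total-count scaling.

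HLA-B (ENSG00000234745, chromosome 6, 31269491 to 31357188) was at 86.0, 94.1 and 81.3 CPM in the blank. The 1.2 mg/mL libraries were at 84.9, 84.7 and 89.9 CPM with HCC+ and at 79.5, 83.4 and 91.8 CPM with HCC-, inside or next to the range of the blank. Its log2 fold changes were -0.01 (95% interval -0.16 to 0.14) and -0.04 (-0.19 to 0.11), neither called. The value for HCC- EVs was 0.25 under total-count scaling, where it passed the test.

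HLA-F, a class I gene whose product is mostly held inside the cell, had 102 to 284 counts per library. Its libraries ran from 3.29 to 4.31 CPM in the blank, 3.43 to 5.02 CPM with HCC+ EVs at 1.2 mg/mL and 3.8 to 4.23 CPM with HCC- EVs. All groups overlapped, and both fold changes were 0.11 (95% intervals -0.23 to 0.45 and -0.23 to 0.44), so changes inside these intervals were not excluded. Of the exon bases of HLA-F, 12.4% overlap HLA-F-AS1 on the other strand, and the strand setting of the counting was not given in the sources used here.

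B2M (ENSG00000166710, chromosome 15, 44711487 to 44718877) fell while HLA-E rose. It was at 276, 251 and 244 CPM in the blank, at 214, 242 and 218 CPM with HCC+ EVs at 1.2 mg/mL and at 175, 157 and 174 CPM with HCC- EVs. The treated groups overlapped neither the blank nor each other. B2M fell by 0.61 ± 0.07 with HCC- EVs (adjusted p = 2.61e-09) and by 0.19 ± 0.07 with HCC+ EVs (adjusted p = 0.0205). The HCC- value was -0.26 once trends with GC content and gene length were removed and -0.32 under total-count scaling, still called. The HCC+ call ended under both (-0.06 and -0.07), with only the groups compared (-0.18), and without HCC+ replicate 1 or 3 or blank replicate 1. B2M (40.6% GC) and TAP2 (50.7% GC) have the lowest GC content of the 9 genes, and the others lie between 54.6% and 61.3%. With the same trends removed TAP2 was at -1.15 with HCC- EVs, called.

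Within each library the per-kilobase ratio of HLA-E to B2M was 0.614, 0.751 and 0.722 in the blank, 1.21, 0.91 and 1.16 with HCC+ EVs at 1.2 mg/mL and 1.43, 1.68 and 1.55 with HCC- EVs. The 3 groups did not overlap. The mean was 1.57 times the blank with HCC+ and 2.24 times with HCC-, again at the smallest exact permutation p of 0.1. At the lower doses the means were 0.787 and 0.875 with HCC+ (0.048 and 0.24 mg/mL) and 0.93 and 0.83 with HCC- EVs, beside 0.696 in the blank, and 3 of these 4 groups (all but HCC+ at 0.048 mg/mL) also gave that permutation p of 0.1. HLA-B, HLA-C and HLA-E summed over B2M were at 3.31 ± 0.423 (SD, n = 3) in the blank, 4.45 ± 0.523 and 5.51 ± 0.55 with HCC+ and HCC- EVs at 1.2 mg/mL, and 4.63 ± 0.0583 with HCC- EVs at 0.048 mg/mL. Such ratios remove library scaling but no trend with GC content, and HLA-E has 58.7% GC against 40.6% for B2M. With GC and length trends removed, the HCC+ log2 fold changes at 1.2 mg/mL were 0.38 for HLA-E and -0.06 for B2M. The HCC- fall of B2M also shrank, as given above, and the ratios were not recomputed.

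NLRC5 (ENSG00000140853, chromosome 16, 56989485 to 57083531), the class I transactivator, was at 8.56, 8.07 and 8.63 CPM in the blank. With HCC+ EVs at 1.2 mg/mL it was at 12.5, 12.3 and 14.3 CPM, above every other library of the series. With HCC- EVs it was at 8.46, 10.3 and 8.12 CPM and overlapped the blank. The HCC+ rise was 0.63 ± 0.14 (adjusted p = 0.00082), and the HCC- value was 0.09 ± 0.14 (95% interval -0.21 to 0.38, adjusted p = 0.636). Means at the lower doses ran from 8.35 ± 1.51 to 9.19 ± 1.47 CPM.

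The sources were compared directly at 1.2 mg/mL. As the number of donors was not given, this contrasts the EV preparations used, and disease cannot be told apart from donor or preparation. Of the 9 genes 4 were called, all higher with HCC+ EVs, where 35.3% of all tested genes were called (22.6% higher with HCC+, 12.7% lower). The split over all genes turned with the scaling: 4411 were higher and 2490 lower, against 2342 and 4572 under total-count scaling and 3614 and 4238 with GC and length trends removed. Of the 9 genes 3 were then higher and 2 lower, and 4 higher and 1 lower. TAP2 was higher by 0.93 ± 0.09 (1.9-fold, adjusted p = 3.22e-09), NLRC5 by 0.54 ± 0.14 and B2M by 0.41 ± 0.07, and the 2 groups did not overlap for any of the 3. HLA-C was higher by 0.22 ± 0.07 without overlap, and this call ended under total-count scaling (0.06) and without HCC+ replicate 1 or 3 or HCC- replicate 1. For TAP1 the difference was 0.05 (95% interval -0.13 to 0.22), for TAPBP -0.04 (-0.17 to 0.10) and for HLA-E -0.10 (-0.24 to 0.03). B2M was at 0.25 under total-count scaling and 0.20 with GC and length trends removed, still called. Under total-count scaling TAPBP (-0.20) and HLA-E (-0.26) were lower with HCC+ EVs and passed the test. HLA-E also passed with GC and length trends removed (-0.18).

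At 0.24 mg/mL none of the 9 genes was called in edgeR against the blank with either source or between the sources. At an unadjusted p under 0.05 the counts were 2 for HCC+, 2 for HCC- and 0 between sources, and DESeq2 called 0 in each. The background was as empty, with 0.00511% of genes called for HCC+, 0% for HCC- and 0% between sources. HCC+ EVs at 0.048 mg/mL gave 0 calls among the 9 (0 at an unadjusted p under 0.05, 0 in DESeq2), with 0% of all genes called. The fold changes of the 9 genes at 0.24 mg/mL lay between -0.12 and 0.22.

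At the lowest HCC- dose, 0.048 mg/mL, 3 of 9 genes were called against the blank, all heavy chain genes and all higher, where 16.4% of genes were called (8.28% higher, 8.16% lower). HLA-C was at 276, 270 and 255 CPM, above every blank library, and rose by 0.38 ± 0.07 (adjusted p = 0.00709). HLA-B, at 114, 112 and 93.6 CPM, overlapped the blank at its lowest library and rose by 0.29 ± 0.07. HLA-E, at 109, 103 and 99.1 CPM, lay above the blank and rose by 0.28 ± 0.07. With GC and length trends removed these became 0.13, 0.06 and 0.06, and none was called. Without blank replicate 1 or 3 the count was also 0, without HCC- replicate 1 it was 1, and without blank replicate 2 it was 5. The background moved with them: over all genes 30 were called with GC and length trends removed, 1 without blank replicate 1, 12 without blank replicate 3 and 5726 without blank replicate 2, against 3216 with all libraries.

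Between sources at 0.048 mg/mL the edgeR test called 0 of 9 genes (3.54% of all genes were called), with 3 at an unadjusted p under 0.05: HLA-C (-0.25), HLA-B (-0.22) and HLA-E (-0.16). DESeq2 called the same 3 genes, all lower with HCC+, where it called 22.4% of the genes it tested.

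From 0.048 to 1.2 mg/mL, HCC+ EVs gave 5 calls of 9, where 28.3% of all genes were called (13.4% higher, 14.9% lower). TAPBP (0.62 ± 0.07), NLRC5 (0.62 ± 0.14), TAP1 (0.47 ± 0.09) and HLA-E (0.34 ± 0.07) were higher at the high dose, and TAP2 was lower (-0.24 ± 0.09), a call lost in each of the 6 fits without a library. For HCC- EVs the count was 7 of 9, where 52.8% of all genes were called (24.9% higher, 28% lower). Under total-count scaling the splits over all genes were 3838 higher and 1805 lower for HCC+ and 8382 and 2979 for HCC-, and with GC and length trends removed the HCC- split was 6605 and 4832. TAP2 was lower by 1.15 ± 0.09 on the log2 scale (fell by 54.8%). TAPBP (0.55 ± 0.07), TAP1 (0.31 ± 0.09) and HLA-E (0.28 ± 0.07) were higher at 1.2 mg/mL, and B2M (-0.46 ± 0.07), HLA-C (-0.39 ± 0.07) and HLA-B (-0.33 ± 0.07) were lower. The HLA-B and HLA-C calls ended under total-count scaling (-0.04 and -0.10).

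A test of whether the difference between sources itself changed from 0.048 to 1.2 mg/mL called 4 of 9 genes, all with a larger HCC+ minus HCC- difference at the high dose, where 24.3% of genes were called (16.7% higher, 7.63% lower). Over all genes 3257 were higher and 1493 lower, against 1631 and 3219 under total-count scaling and 2896 and 2926 with GC and length trends removed. The 4 genes were TAP2, NLRC5, HLA-C and B2M. The NLRC5 and B2M calls ended under total-count scaling (0.46 and 0.14). TAP1 (0.16 ± 0.12), TAPBP (0.07 ± 0.09) and HLA-E (0.06 ± 0.09) did not pass.

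The loading complex holds more than tapasin. Of 9 other genes for peptide loading and trimming, at 1.2 mg/mL 2 rose and 4 fell with HCC+ EVs, and 1 rose and 6 fell with HCC- EVs, beside 15.6% higher and 17.4% lower, and 24.8% and 28.5%, over all tested genes. Their median log2 fold changes were -0.12 and -0.40, beside 0.013 and 0.051 over all genes. TAPBPL, which encodes a tapasin-related peptide editor, rose from 1.01 ± 0.174 CPM (SD, n = 3) to 2.5 ± 0.441 CPM with HCC+ and 3.99 ± 1.61 CPM with HCC-, by 1.32 ± 0.28 and 1.99 ± 0.28. Endoplasmic reticulum chaperones went the other way. PDIA3, the disulfide isomerase bound to tapasin, fell by 0.21 ± 0.07 and 0.62 ± 0.07, and CALR (calreticulin) by 0.21 ± 0.05 and 0.40 ± 0.05. The glycoprotein sensor gene UGGT1 fell by 0.20 ± 0.06 and 0.65 ± 0.06 and HSPA5 (BiP) by 0.32 ± 0.05 and 0.40 ± 0.05. CANX (calnexin) fell by 0.61 ± 0.06 with HCC- and was at -0.12 ± 0.06 with HCC+, uncalled. GC content was 46.0% for PDIA3, 55.4% for CALR, 44.8% for UGGT1, 46.0% for HSPA5 and 44.9% for CANX, beside 57.6% for TAPBPL. Log2 fold changes of this list and those below come from TMM scaling, and the alternatives were examined for the 9 genes alone. Total-count scaling adds 0.12 (HCC+) and 0.28 (HCC-) at 1.2 mg/mL, so the smaller falls depend on the scaling.

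Of 8 genes for the immunoproteasome and proteasome activators, 4 fell with HCC+ and none rose, while with HCC- EVs 5 fell and 1 rose. All genes tested at this dose gave 17.4% lower and 15.6% higher with HCC+, and 28.5% and 24.8% with HCC-. PSME1, an activator subunit, fell by 0.32 ± 0.06 and 0.86 ± 0.06. POMP, the assembly chaperone, was at 170 ± 18.5 CPM in the blank, 144 ± 7.1 CPM with HCC+ and 108 ± 8.45 CPM with HCC- EVs (fell by 0.24 ± 0.07 and 0.65 ± 0.07). PSMF1, which encodes a proteasome inhibitor, fell by 0.20 ± 0.06 and 0.30 ± 0.06. The inducible catalytic subunits were scarce: PSMB8 was at 0.121, PSMB9 at 2.43 and PSMB10 at 0.858 CPM on average in the blank (named after their values were seen). PSMB9 starts 488 bases from TAP1 and runs the other way. It was at 2.43 ± 0.512, 2.47 ± 0.563 and 2.16 ± 0.307 CPM in the blank, HCC+ and HCC- groups, with log2 values of 0.03 ± 0.22 and -0.16 ± 0.22, neither called, beside the rise of TAP1. Of the 3 standard catalytic subunits PSMB6 fell with both sources (0.20 ± 0.06 and 0.49 ± 0.06), and PSMB7 fell with HCC- (0.18 ± 0.05). The 0.28 that total-count scaling adds with HCC- EVs is larger than this fall of PSMB7 and near that of PSMF1. POMP has 34.3% GC, and the part of GC content in its fall was not tested.

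**Figure D4:**
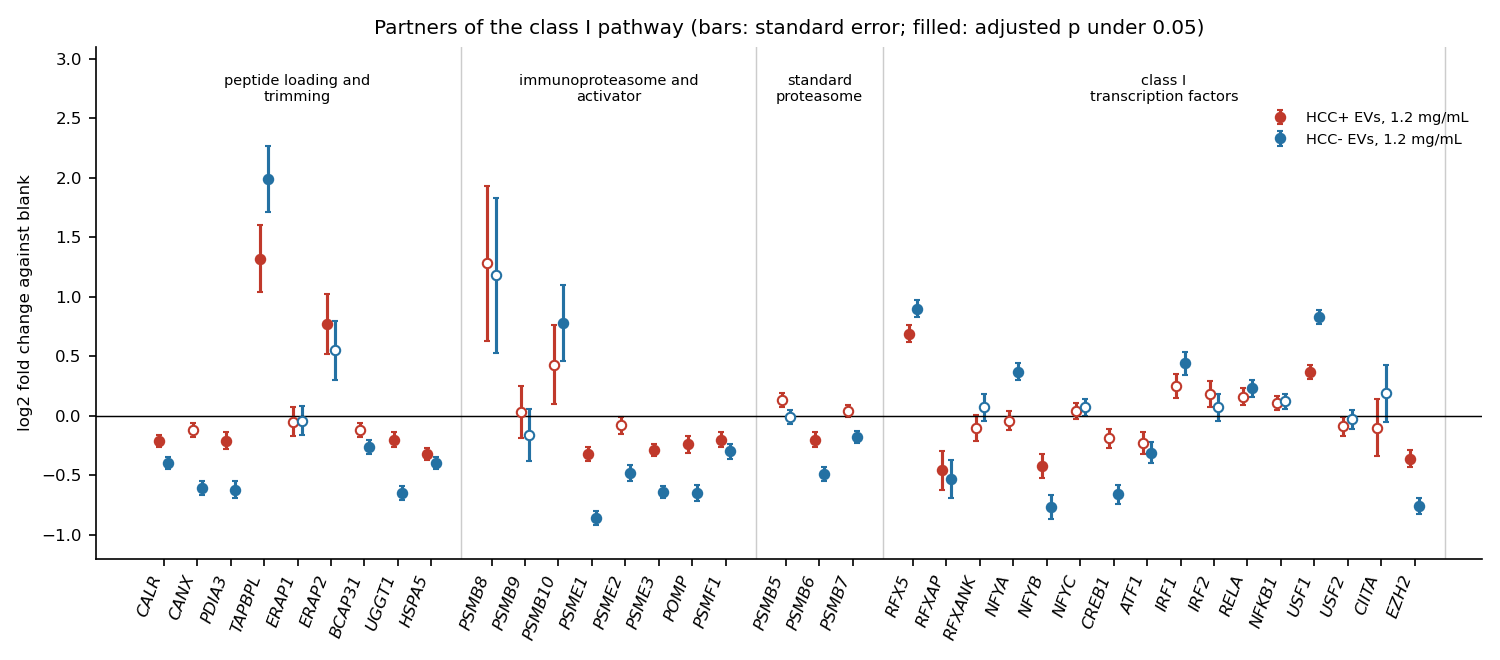
Log2 fold change against the blank at 1.2 mg/mL (vertical axis) of genes for peptide loading and trimming, the immunoproteasome and its activators, the standard proteasome and class I transcription factors (horizontal axis), with standard errors as bars; red is HCC+, blue HCC-, and filled points passed an adjusted p under 0.05. TAPBPL, RFX5 and USF1 sit above 0 for both sources, while PSME1, UGGT1, HSPA5 and EZH2 sit below, the HCC- points lower. All values use TMM scaling.

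Of 16 tested transcription factor genes tied to class I promoters, 2 rose and 3 fell with HCC+, and 5 rose and 5 fell with HCC-, beside 33% and 53.3% called over all tested genes. RFX5, a subunit of the RFX complex that NLRC5 needs, rose by 0.69 ± 0.07 and 0.90 ± 0.07, from 48.5 ± 2.34 CPM to 78.4 ± 0.718 and 90.3 ± 3.32 CPM. RFXAP, another subunit of that complex, fell by 0.46 ± 0.16 and 0.53 ± 0.16, and RFXANK was at -0.10 ± 0.11 and 0.07 ± 0.11, not called (both named after their values were seen). USF1, an E-box factor, rose by 0.37 ± 0.06 and 0.83 ± 0.06. EZH2 (44.6% GC), a Polycomb methyltransferase known to silence class I genes in some tumours, fell by 0.36 ± 0.07 and 0.76 ± 0.07. NFYB (40.9% GC), a subunit of the CCAAT-binding factor, fell by 0.42 ± 0.10 and 0.77 ± 0.10. The other subunits of that factor did not fall. NFYA was at -0.04 ± 0.08 with HCC+, uncalled, and rose by 0.37 ± 0.07 with HCC-. NFYC was at 0.04 ± 0.07 and 0.07 ± 0.07, not called (named after its values were seen). Between the sources RFX5 and NLRC5 differed in opposite directions, RFX5 being lower with HCC+ EVs (-0.21 ± 0.07, adjusted p = 0.0163).

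Of 16 interferon signalling genes, 2 rose and 2 fell with HCC+, and 4 rose and 3 fell with HCC-, no larger a share than the 33% and 53.3% of all tested genes. PTPN2, a phosphatase that damps interferon signalling, fell by 0.54 ± 0.08 and 0.49 ± 0.08. STAT2 rose by 0.28 ± 0.08 and 0.37 ± 0.08, and SOCS3, a feedback inhibitor, rose by 0.47 ± 0.11 with HCC-.

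Genes for class I turnover also went both ways: 3 of 9 rose and 3 fell with HCC+, and 4 rose and 3 fell with HCC-, beside 33% and 53.3% of all tested genes in either direction. SUSD6, which takes part in a complex that sends class I molecules to lysosomes, rose by 0.53 ± 0.10 and 0.86 ± 0.10, and its partner TMEM127 rose by 0.42 ± 0.06 with HCC-. The ubiquitin ligase WWP2 of the same complex fell by 0.37 ± 0.08 and 0.39 ± 0.08. SYVN1, a ligase of endoplasmic reticulum quality control, rose by 0.25 ± 0.08 and 0.42 ± 0.08.

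Of 17 tested other class I heavy chain and related genes, 6 rose and 1 fell with HCC+, and 6 rose and 2 fell with HCC-, beside 33% and 53.3% called over all tested genes. MR1, which presents vitamin metabolites and also pairs with beta-2-microglobulin, rose by 0.75 ± 0.11 and 1.23 ± 0.11, from 11.0 ± 1.16 CPM to 18.5 ± 1.42 and 25.9 ± 2.11 CPM. RAET1G and RAET1L, which encode ligands of the NKG2D receptor of natural killer cells, started under 1 CPM; RAET1G rose by 1.96 ± 0.47 and 2.09 ± 0.46, and RAET1L by 1.47 ± 0.30 and 1.71 ± 0.30. ULBP1, another such ligand, fell by 0.78 ± 0.11 with HCC+ EVs and was lower than with HCC- EVs (-0.68 ± 0.11).

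Class II genes and markers of other cells moved with the same dose. Of 11 tested class II genes 6 rose with HCC+ and 5 with HCC-, and none fell (15.6% and 24.8% of all tested genes were higher); the list summed to 12.0 to 13.2 CPM in blank libraries, 17.4 to 20.9 CPM with HCC+ EVs and 19.2 to 21.3 CPM with HCC- EVs. The 16 leukocyte markers, cells that themselves express class I strongly, summed to 2.2 to 2.57 CPM in blank libraries, 3.77 to 5.41 CPM with HCC+ and 6.69 to 8.91 CPM with HCC- at 1.2 mg/mL, and S100A8, S100A9, CD3D and FCGR3A were at 0 in all libraries. PTPRC, the pan-leukocyte gene, had at most 4 counts in any library. HLA-DRA had the highest level of these markers, with means of 1.15, 2.62 and 3.38 CPM in the blank, HCC+ and HCC- groups. It and CD74 also belong to the class II list, so the leukocyte and class II sums share genes. CD14 and LYZ also rose with both sources, and CD74 was called with neither. Of the other lists, the sum of 5 endothelial markers went from 0.689 to 1.1 CPM in the blank to 3.22 to 4.04 and 5.95 to 8.02 CPM. Among them PECAM1 and VWF rose with both sources, while KDR and CLDN5 were called with neither. The sum of 5 fibroblast markers went from 14.2 to 17.7 CPM to 21.3 to 30.8 and 28.6 to 34.6 CPM. That sum was mostly COL1A1 (means of 15.5, 26.0 and 30.8 CPM), the only fibroblast marker that passed the filter on low counts. The 7 platelet markers summed to 27.5 to 31.7 CPM in the blank and to 20.4 to 22.1 and 13.3 to 16.4 CPM in the 1.2 mg/mL groups, with PPBP and PF4 at 0. Most of that platelet sum was NRGN, with means of 23.6, 15.7 and 10.2 CPM in the blank, HCC+ and HCC- groups. The 6 erythroid markers stayed under 1 CPM and the 7 hepatocyte markers under 4 CPM in every group. The part of these shifts in the class I values was not tested.

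Likeness of pattern was taken as the root mean square difference of centred log2 group means over the 7 groups, among 12263 genes whose mean log2 CPM reached 1. All genes share the same libraries, so these values are descriptions with no test. The nearest genes to TAP1 were MYO9B (0.028), RAB15 (0.037) and DAPK3 (0.038), and those to TAPBP were CACNB3 (0.034), TNFAIP2 (0.044) and S1PR2 (0.048). TAP2 was nearest to DERA (0.033), NEMP1 (0.033) and NCAPD3 (0.042), and B2M to CIAO2A (0.020), SPATS2L (0.021) and YWHAQ (0.022). HLA-E was nearest to DDR1 (0.028), RUSC2 (0.030) and STAT6 (0.032), and NLRC5 to TBC1D16 (0.053), MGLL (0.054) and USH1C (0.058). Among the 9 genes themselves HLA-B and HLA-C were closest (0.068), HLA-B being the 199th nearest gene to HLA-C, and TAP1 and TAPBP came next (0.081), TAP1 being the 95th nearest gene to TAPBP.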

How the data were processed

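Polyadenylated RNA of 21 libraries (7 groups of 3) was measured. Per the submitters' processing notes, the authors used cutadapt 3.4, HISAT2 2.2.1 and featureCounts 2.0.1 with GRCh38. Which annotation release, strand and multimapping settings they chose was not given in the sources used here. Values were deposited as raw read counts for each gene, 31219343 to 64012757 in a library. Symbols were found for 58472 of 65065 identifiers, and 2062 identifiers on alternate chromosome 6 sequences held 0 counts.

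All libraries entered a model of 7 group means in edgeR 4.0.16 (R 4.3.3) with TMM factors, filterByExpr (19556 genes) and the robust quasi-likelihood F test, 2-sided, with Benjamini-Hochberg adjustment over all tested genes and 14 residual degrees of freedom. SEs were log2 fold changes divided by the root of F. The common biological coefficient of variation was 0.0885. The scripts were tested on simulated counts. Alternatives were RLE (relative log expression) or total-count scaling, no filter, DESeq2 1.42.0, a replicate block, only the groups compared, removal of each library's GC and length trends (12251 genes set them), and leaving out each library. All 9 genes were named in every comparison, and up to 4 called genes of smallest p per list. The genes and lists were chosen with earlier results of these data known. Replicate numbers were checked for pairing and did not pair the samples. Proteins were not analysed here.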

Additional observations from a re-analysis of the deposited data

Results flagged for a closer look

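For 4 genes the difference between the EV sources was itself different at 1.2 and at 0.048 mg/mL, by edgeR's test of that difference with Benjamini-Hochberg adjustment (24.3% of all tested genes passed it). The HCC+ minus HCC- log2 difference grew by 0.90 ± 0.13 (SE) for TAP2 (adjusted p = 4.57e-06), from 0.02 to 0.93. For NLRC5 it grew by 0.65 ± 0.20 (adjusted p = 0.0159), from -0.11 to 0.54; this call ended without HCC+ 1.2 replicate 3, HCC+ 0.048 replicate 2, HCC- 1.2 replicate 3 or HCC- 0.048 replicate 3 (0.53 to 0.86 over 12 fits) and under total-count scaling (0.46). For HLA-C it grew by 0.47 ± 0.10, from -0.25 to 0.22, and was 0.18 with GC and length trends removed, still called. For B2M it grew by 0.34 ± 0.09, from 0.08 to 0.41, and was 0.14 under total-count scaling, no longer called.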

How the results depend on the processing

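Of 35 called gene and comparison pairs, 23 were called with the same sign in every alternative and every fit without a library, and none changed sign; 12 lost the call at least 1 time. Total-count scaling ended 8 calls, removal of GC and length trends 5, fitting only the groups compared 3, RLE factors 1, no filter 1, and DESeq2 and the replicate block 0. Total-count scaling adds 0.12 to the log2 fold changes of HCC+ EVs at 1.2 mg/mL and 0.28 to those of HCC- EVs, and with it all 9 genes were called for HCC- EVs (7 higher, 2 lower) and 2 for the difference of the source effect between doses. For HCC+ EVs at 1.2 mg/mL 4 genes were called with only the groups compared and 4 to 7 without a library. For HCC- EVs at 0.048 mg/mL the count was 0 with GC and length trends removed and 0 to 5 without a library. Between sources at 0.048 mg/mL, where the main count was 0, it was 1 with RLE factors, 1 without the filter, 1 with the replicate block, 3 with only the groups compared, 3 in DESeq2, and 0 to 1 without a library. The replicate numbers did not pair the samples (20 of 63 same-number pairs had a residual correlation over 0.1, range -0.451 to 0.524), and the block changed no other count by over 1.5 times. Signs changed only for values that the main fit left uncalled. Of these, HLA-B and HLA-C with HCC- EVs at 1.2 mg/mL turned positive and passed the test under total-count scaling. HLA-B with HCC+ at 1.2 mg/mL was 0.11 under total-count scaling, 0.00 without the filter and -0.06 to 0.05 without a library. HLA-B with HCC- was 0.25 under total-count scaling and -0.09 to 0.01 without a library. HLA-C with HCC- was 0.01 with RLE factors, 0.28 with total-count scaling, 0.01 with only the groups compared, 0.01 in DESeq2 and -0.10 to 0.10 without a library. HLA-F with HCC+ was -0.10 to 0.24 without a library. NLRC5 with HCC- was -0.15 with GC and length trends removed and -0.01 to 0.16 without a library. TAP1 between sources at 1.2 mg/mL was -0.12 with total-count scaling and -0.01 to 0.09 without a library. Unless stated beside a value, the cause was not tested. The alternative that sums copies on alternate chromosome 6 sequences could change no value, since these held 0 counts. HLA-F and NLRC5, with the fewest counts, have the widest intervals.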
